A study of Mus musculus with 14 samples.

Results

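The genes described here are 33 mouse genes of B lymphoid development, from the pro-B to the mature B cell stage and without immunoglobulin genes, out of 52550 genes in the count table. They were chosen by name, and 32 matched the annotation by their current symbol and 1, Faim3, by an older symbol (it is now Fcmr). RNA was measured by sequencing of total RNA, depleted of ribosomal RNA, from 14 mouse samples. Hematopoietic stem and progenitor cells (HSPCs) were enriched with a commercial progenitor enrichment kit from femur and tibia marrow of C57BL/6 mice aged 8 to 20 weeks, as 4 WT and 4 Mir139KO samples, the latter from mice in which Mir139 was deleted with a Cas9 nickase. The 6 MLL-AF9 samples were WT HSPCs transduced with a retrovirus carrying the leukemia fusion gene MLL-AF9 next to a neomycin resistance gene (neo, replicates 1 to 3) or a puromycin resistance gene (puro, replicates 4 to 6), selected, and replated in semisolid medium. Cytokines (SCF, GM-CSF and the interleukins 3 and 6) were given to the cultures, and since HSPCs cultured without the fusion gene were not among the samples, culture and fusion gene cannot be told apart. The labels do not say which HSPCs were lysed directly. The labels do not say whether replicates were separate mice or cultures, so p-values measure the spread between these samples only. In bulk RNA, fewer B lineage cells and less RNA of these genes per cell cannot be told apart.

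B cells arise in the bone marrow from lymphoid progenitors that receive interleukin-7 signals and switch on the transcription factors Tcf3 (E2A), Ebf1 and Pax5, which open and maintain the B lineage program. Pro-B cells join immunoglobulin gene segments with the recombinases Rag1 and Rag2 and the DNA polymerase Dntt, and pre-B cells show a trial heavy chain with the surrogate light chain (Vpreb proteins and Igll1) and the signalling pair Cd79a and Cd79b. The MLL-AF9 fusion is best known from myeloid leukemia. Lineage depletion of marrow is designed to remove mature B cells but keeps early progenitors.

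Total counts were 35016668 to 45877994 per sample, and 3 counts corresponded to 0.0654 to 0.0857 CPM (counts scaled to a common library size), which covers counting error only. The RNA gene Gm26917 took 17.0 to 35.4% of the counts in HSPC libraries and 7.55 to 10.4% in MLL-AF9 libraries, and each HSPC genotype had 2 libraries under and 2 over a share of 25%. All 4 genes of a list of known MLL fusion targets were called higher in MLL-AF9 cells than in WT HSPCs. MLL-AF9 replicates 4 and 6 were the most alike of all pairs, but their counts still differed beyond sampling noise (chi-square per degree of freedom 9.002), and both were kept. Levels below are CPM normalized with TMM factors, given with SD over the samples of a group.

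Most of the 33 genes were lower in MLL-AF9 cells than in WT HSPCs. Of the 29 genes with enough counts to be tested, 21 fell, 2 rose (Bank1 and Cr2) and 6 were not called with edgeR's quasi-likelihood test at an adjusted p under 0.05. Among all 17077 genes tested, 29.4% were called lower and 32.8% higher. The median log2 fold change of the 29 genes was -3.43, beside 0.14 over all genes tested. The filter on low counts was passed by 7 of them without any MLL-AF9 sample reaching 10 counts (Faim3, Vpreb1, Dntt, Blk, Pax5, Ebf1 and Pou2af1), and such genes had to differ once they passed. Only 17 of the 29 had at least 4 MLL-AF9 samples of 10 counts, so Fcrla, Tnfrsf13c, Igll1, Blnk and Lef1 also needed HSPC samples to pass. The count of falls therefore describes the genes measured rather than all 33. Cr2 passed only through MLL-AF9 samples, so the filter also bears on its rise. Of the remaining genes, Ms4a1, Rag1 and Rag2 were listed at 0 in all 14 libraries, as were 3922 of 21819 protein-coding genes, and Vpreb2 had too few counts. For 20 of the 29 genes every MLL-AF9 sample lay below every WT sample, where 24.5% of all genes tested did so, and for 2 every MLL-AF9 sample lay above, where 26.0% did.

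**Figure D1:**
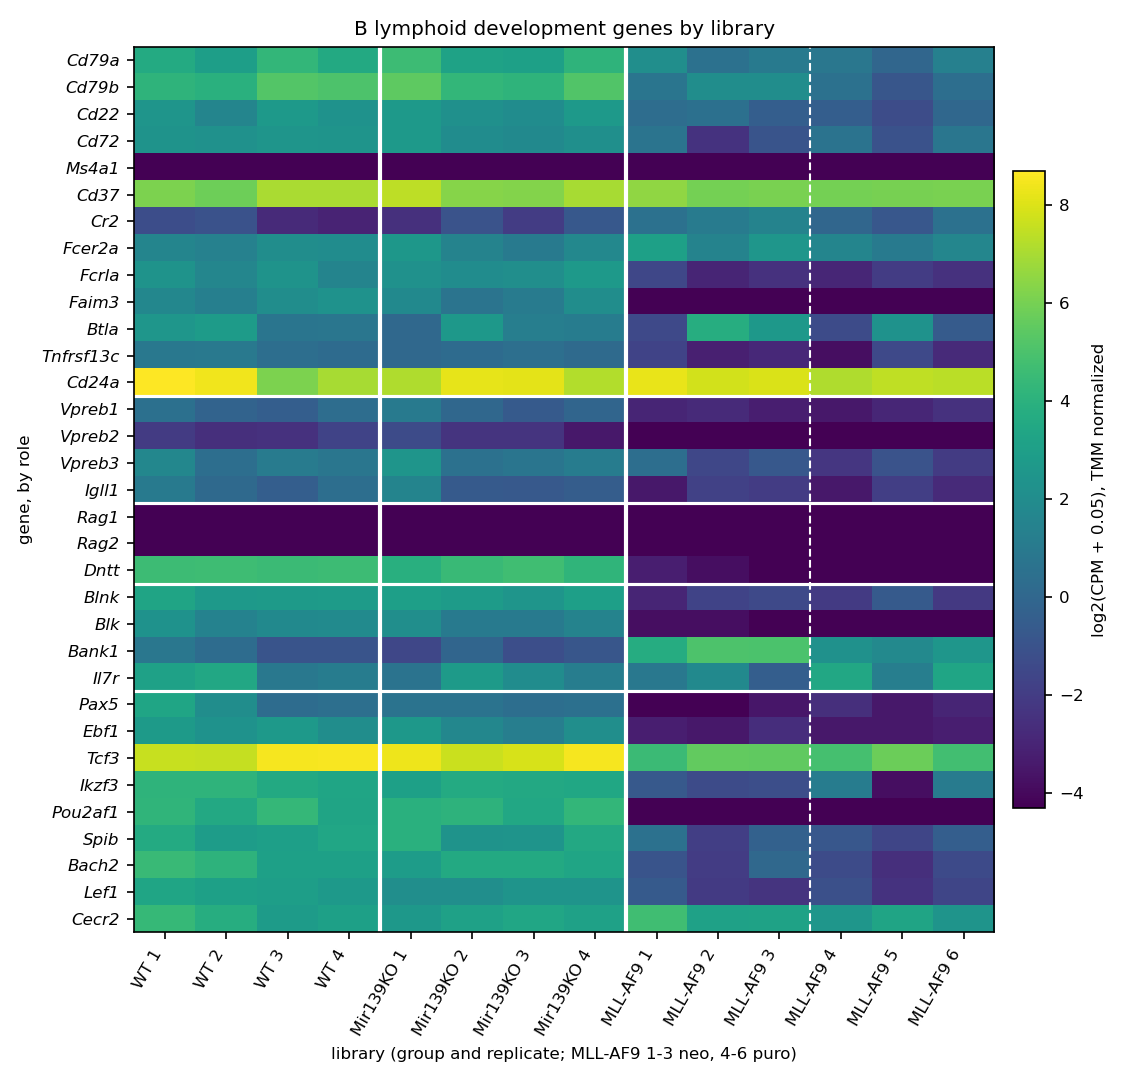
Level of each of the 33 genes (rows, grouped by role) in each of the 14 libraries (columns), as log2 of TMM-normalized CPM plus 0.05, with solid white lines between groups of samples and a dashed line between neo and puro. Most rows darken at the change from HSPCs to MLL-AF9 cells, whereas Cd24a and Cd37 stay bright, Bank1 and Cr2 brighten, and Ms4a1, Rag1 and Rag2 are at 0 throughout.

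**Figure D2:**
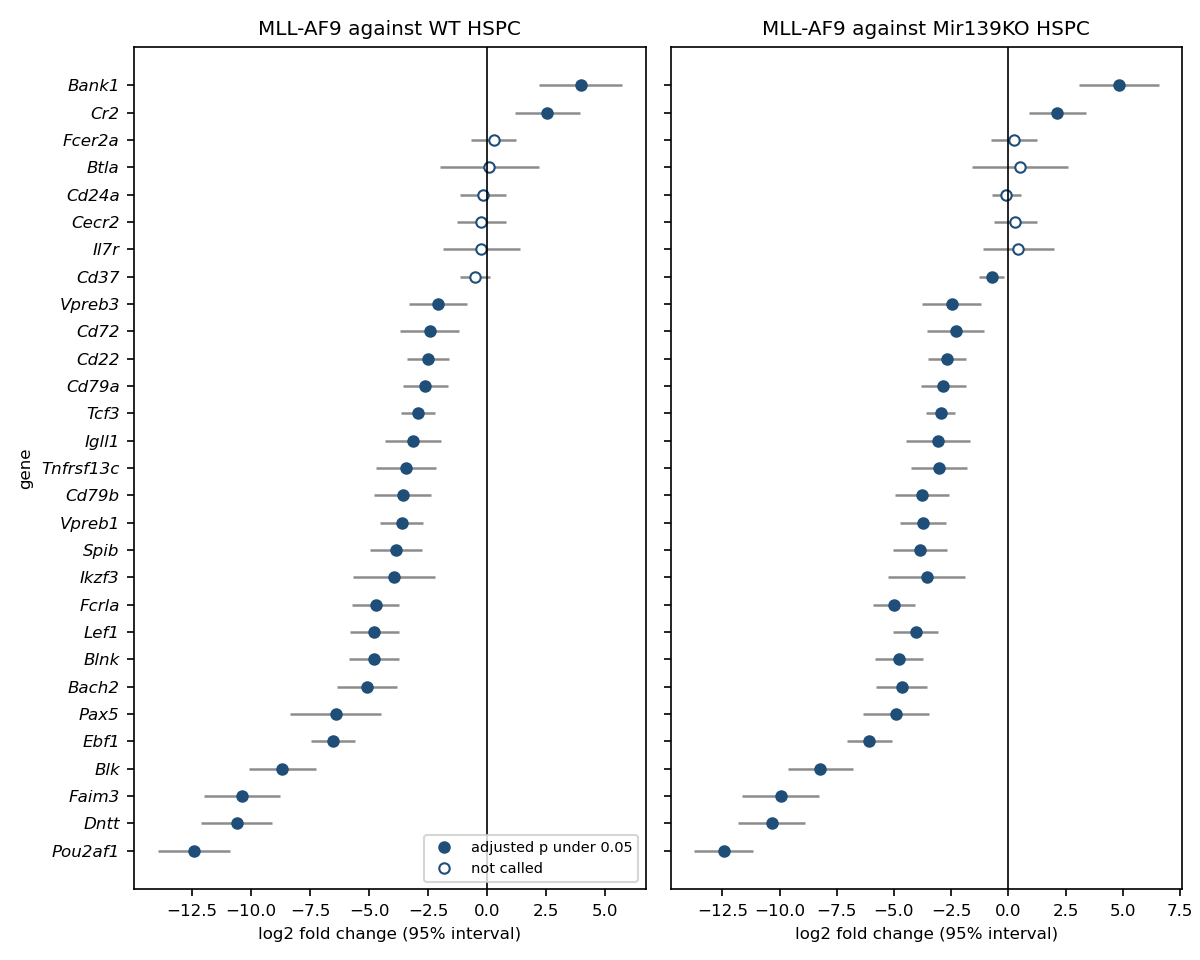
Log2 fold changes (points) with 95% intervals (bars) of the 29 tested genes in MLL-AF9 cells against WT (left) and Mir139KO HSPCs (right), with filled points called at an adjusted p under 0.05 with edgeR. Only Bank1 and Cr2 are called above 0, and the fitted values of Faim3 and Pou2af1, which had no counts in MLL-AF9 cells, depend on the prior count.

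Promoters were looked up for the genes in the RefSeq table of build GRCm38.p6, which held an entry for 27 of the 33, with 33 start sites among them. The search covered both strands for the letters CCCNNGGG (bound by Ebf1), CAGNTG (an E-box, bound by Tcf3), ATGCAAAT (the octamer, bound by Oct factors that Pou2af1 joins) and GAGGAA (a core bound by ETS factors such as Spib). CCCNNGGG was present in 12.1% of the 33 windows against 13.7% of all 32851 promoters, CAGNTG in 69.7% against 51.4%, ATGCAAAT in 6.06% against 1.74%, and GAGGAA in 39.4% against 28.3%. These matches describe letters in a 300-base window and are not binding sites. Shown here are the promoters of Igll1 (chr16:16863936-16864235, minus strand) and Vpreb1 (chr16:16869206-16869505, minus strand), which encode parts of the surrogate light chain and fell together, of Pou2af1 (chr9:51213440-51213739, plus strand), which had no counts in MLL-AF9 cells, and of Bank1 (chr3:136326017-136326316, minus strand), which rose. Capitals mark the motif letters, none of which overlap another motif in these windows.
Igll1: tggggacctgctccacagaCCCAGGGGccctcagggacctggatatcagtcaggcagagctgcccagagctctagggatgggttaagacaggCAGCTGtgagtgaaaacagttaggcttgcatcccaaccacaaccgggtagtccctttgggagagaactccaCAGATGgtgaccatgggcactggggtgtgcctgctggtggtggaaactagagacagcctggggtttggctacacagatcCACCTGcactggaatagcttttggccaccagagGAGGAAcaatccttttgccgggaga
Vpreb1: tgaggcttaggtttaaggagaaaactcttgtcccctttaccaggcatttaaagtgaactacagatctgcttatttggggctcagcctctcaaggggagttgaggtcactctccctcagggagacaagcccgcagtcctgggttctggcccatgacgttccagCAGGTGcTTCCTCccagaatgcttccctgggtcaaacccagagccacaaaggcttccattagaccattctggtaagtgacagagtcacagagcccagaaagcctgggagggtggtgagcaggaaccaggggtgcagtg
Pou2af1: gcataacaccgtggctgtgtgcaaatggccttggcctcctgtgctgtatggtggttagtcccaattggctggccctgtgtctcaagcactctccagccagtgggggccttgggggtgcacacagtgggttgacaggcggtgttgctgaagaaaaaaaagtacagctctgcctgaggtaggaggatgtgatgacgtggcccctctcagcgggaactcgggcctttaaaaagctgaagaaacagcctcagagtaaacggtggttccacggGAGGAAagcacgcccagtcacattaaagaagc
Bank1: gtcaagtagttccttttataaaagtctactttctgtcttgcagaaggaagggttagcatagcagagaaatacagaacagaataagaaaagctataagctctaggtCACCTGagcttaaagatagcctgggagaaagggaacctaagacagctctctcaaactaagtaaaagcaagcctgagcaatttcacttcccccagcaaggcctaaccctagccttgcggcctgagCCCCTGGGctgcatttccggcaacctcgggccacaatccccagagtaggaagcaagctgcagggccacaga
The Igll1 window held 1 match to CCCNNGGG, 3 to CAGNTG and 1 to GAGGAA. The Vpreb1 window held 1 CAGNTG and 1 GAGGAA, the Pou2af1 window 1 GAGGAA alone, and the Bank1 window 1 CCCNNGGG and 1 CAGNTG. The Bank1 and Igll1 windows shared CCCNNGGG and CAGNTG, while GAGGAA was in the Igll1 window and not in the Bank1 window. A link between these letters and the direction of a gene was not tested.

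Among the transcription factors and chromatin genes, 8 of 9 fell and 1, Cecr2, was not called, where 29.4% of all genes tested against WT were called lower. Ebf1 was at 6.78, 4.98, 6.37 and 4.11 CPM in WT HSPC replicates 1 to 4 and at 6.13, 3.19, 2.35 and 4.26 CPM in Mir139KO replicates 1 to 4. In MLL-AF9 cells Ebf1 ranged from 0.0396 to 0.110 CPM with a median of 0.0485. No MLL-AF9 library reached the lowest HSPC library, and the log2 fold change against WT was -6.54 (SE 0.425, edgeR adjusted p = 5.70e-07). Ebf1 and Pax5, like Pou2af1, passed the filter on low counts through HSPC samples alone. Their p-values and lack of overlap are therefore no independent support for a fall. Pax5, which commits cells to the B lineage, was at 9.82, 4.07, 1.16 and 1.29 CPM in WT replicates 1 to 4 and at 1.52, 1.51, 1.27 and 1.34 CPM in Mir139KO replicates 1 to 4. WT replicates 1 and 2 stood above all other libraries. In MLL-AF9 neo cultures Pax5 was at 0, 0 and 0.0367 CPM and in puro cultures at 0.120, 0.0400 and 0.0759 CPM, which is 0 to 6 counts. The log2 fold change of Pax5 against WT was -6.43 (SE 0.89, edgeR adjusted p = 0.000108). Of the exon bases of Pax5, 8.60% overlap other annotated genes on the opposite strand, and the strand setting of the counting is not given in the sources used here.

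Pou2af1, a B cell coactivator of octamer factors, was at 18.2, 11.6, 20.1 and 9.59 CPM in WT and at 15.5, 17.0, 11.2 and 19.8 CPM in Mir139KO replicates 1 to 4. It had 0 counts in all 6 MLL-AF9 libraries. Taking 3 counts per library as the floor, the WT level was at least 248-fold higher. Tcf3, which encodes the E2A proteins and is also used outside the B lineage, had the highest level per exon length of the transcription factors and was at 192, 186, 370 and 384 CPM in WT and 332, 200, 236 and 365 CPM in Mir139KO replicates 1 to 4. In MLL-AF9 cells Tcf3 ranged from 23.5 to 55.0 CPM with a median of 37.0, below every HSPC library but far from 0. Its log2 fold change against WT was -2.94 (SE 0.33, edgeR adjusted p = 2.85e-05).

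Ikzf3 (Aiolos), a partner of Ikaros in maturing B cells, was at 17.9, 17.4, 12.1 and 10.0 CPM in WT and at 8.33, 12.4, 11.6 and 10.8 CPM in Mir139KO replicates 1 to 4. In MLL-AF9 replicates 1 to 6 it was at 0.582, 0.337, 0.385, 2.18, 0.0200 and 2.05 CPM, so puro replicates 4 and 6 stood above the other cultures, and the log2 fold change against WT was -3.96 (SE 0.81, edgeR adjusted p = 0.00127). Bach2, a repressor that holds B cells from plasma cell fate, was at 22.2, 16.9, 8.45 and 8.34 CPM in WT and at 7.23, 11.8, 11.9 and 9.98 CPM in Mir139KO replicates 1 to 4. The MLL-AF9 range of Bach2 was 0.120 to 1.01 CPM with a median of 0.331, with a log2 fold change against WT of -5.10 (SE 0.58, edgeR adjusted p = 2.90e-05). Spib, an ETS factor of B cells and plasmacytoid dendritic cells, fell from 7.29 to 12.5 CPM in WT to 0.218 to 1.42 CPM, and Lef1, a Wnt pathway factor of early lymphoid cells, fell from 6.46 to 10.1 CPM to 0.140 to 0.601 CPM. For Lef1, 13.7% of exon bases are shared with an antisense gene. Lef1 also needed HSPC samples to pass the filter on low counts, which bears on its fall. Cecr2, a bromodomain protein of chromatin remodelling complexes, was at 21.1, 13.9, 7.09 and 8.34 CPM in WT and at 6.17, 8.72, 10.2 and 8.52 CPM in Mir139KO replicates 1 to 4. In MLL-AF9 replicates 1 to 6 Cecr2 was at 26.15, 8.51, 8.89, 5.57, 9.60 and 5.34 CPM, overlapping both HSPC groups, with a log2 difference against WT of -0.25 (SE 0.49, edgeR adjusted p = 0.671).

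Of the recombination genes, only Dntt could be measured. Dntt, the polymerase that adds bases at the joints of immunoglobulin genes, was at 24.3, 25.4, 23.0 and 24.3 CPM in WT and at 14.6, 22.6, 25.6 and 18.0 CPM in Mir139KO replicates 1 to 4. The WT libraries lay within 1.11-fold of each other. In MLL-AF9 neo replicates 1 and 2 there were 3 and 1 counts of Dntt and in the other 4 cultures 0, and the log2 fold change against WT was -10.61 (SE 0.69, edgeR adjusted p = 6.29e-07), a fitted size that rests on 4 counts. Dntt passed the filter on low counts through HSPC samples alone, so its p-value is no independent support for a fall. Rag1 and Rag2, which lie side by side on chromosome 2, were listed at 0 in the same HSPC libraries in which Dntt had 345 to 1156 counts. These zeros, like that of Ms4a1, are entries of the count table and were not read as absence of expression.

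The surrogate light chain genes were low in HSPCs and lower in MLL-AF9 cells. All 3 that could be tested fell, where 29.4% of all genes tested against WT were called lower. Vpreb1 was at 1.32, 0.838, 0.693 and 1.21 CPM in WT and 1.90, 0.969, 0.587 and 0.907 CPM in Mir139KO replicates 1 to 4, against 0.0400 to 0.133 CPM in MLL-AF9 cells (median 0.0788). Igll1, the lambda-5 chain, was at 1.91, 1.05, 0.693 and 1.25 CPM in WT and at 2.83, 0.598, 0.562 and 0.670 CPM in Mir139KO replicates 1 to 4, against 0.0388 to 0.238 CPM in MLL-AF9 cells (median 0.148). The log2 fold changes against WT were -3.63 for Vpreb1 (SE 0.42, edgeR adjusted p = 3.24e-05) and -3.15 for Igll1 (SE 0.54, edgeR adjusted p = 0.000457). Vpreb1 passed the filter on low counts through HSPC samples alone, so its p-value is no independent support for a fall. Igll1 also needed HSPC samples to pass, so the same holds for the p-value of Igll1. Vpreb3, a related protein that binds new light chains, fell by 2.09 on the log2 scale (SE 0.57, edgeR adjusted p = 0.00694), although its highest MLL-AF9 value, 1.26 CPM, overlapped the lowest WT value, 1.23 CPM. Its call was lost with neo cultures only (-1.52, edgeR adjusted p = 0.0544) and against the low-share Mir139KO libraries (-1.71, edgeR adjusted p = 0.0696). Vpreb1, Vpreb3 and Igll1 were each highest in replicate 1 of WT HSPCs and in replicate 1 of Mir139KO HSPCs. Vpreb2 had 1 to 9 counts in HSPC libraries and 0 in all MLL-AF9 libraries. The longest coding transcripts of Vpreb1 and Vpreb2 are identical at 97.4% of 759 aligned bases, so reads could not be divided safely between them and both levels are uncertain.

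The B cell receptor and surface genes were mixed: of 12 tested, 7 fell, 1 rose and 4 were not called. Among all genes tested against WT, 29.4% were called lower and 32.8% higher. Of the fallen genes, Faim3 passed the filter on low counts through HSPC samples alone. Fcrla and Tnfrsf13c also needed HSPC samples to pass, which bears on their falls. Cd79b was at 17.7, 15.1, 36.7 and 32.8 CPM in WT and 44.1, 19.4, 17.3 and 35.4 CPM in Mir139KO replicates 1 to 4. In MLL-AF9 cells Cd79b was at 1.59, 4.04 and 4.18 CPM in neo and at 1.42, 0.500 and 1.27 CPM in puro cultures. No culture reached an HSPC library, and the log2 fold change against WT was -3.59 (SE 0.55, edgeR adjusted p = 0.000212). Cd79a was at 12.2, 7.89, 19.9 and 12.1 CPM in WT and 23.9, 9.03, 8.41 and 17.7 CPM in Mir139KO replicates 1 to 4, against 0.920 to 4.21 CPM in MLL-AF9 cells (median 1.84). It fell by 2.64 on the log2 scale against WT (SE 0.44, edgeR adjusted p = 0.000369) and kept 46 to 217 counts per culture. Faim3, the receptor for IgM, was at 3.17, 2.37, 4.09 and 4.996 CPM in WT and 3.51, 1.57, 2.10 and 4.06 CPM in Mir139KO replicates 1 to 4 and had 0 counts in every MLL-AF9 library, so that the WT level was at least 61.0-fold higher.

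Fcrla, an Fc receptor-like protein inside B cells, fell from 2.83 to 5.12 CPM in WT to 0.0792 to 0.291 CPM in MLL-AF9 cells. Tnfrsf13c, the receptor for the survival factor BAFF, fell from 1.10 to 1.84 CPM to 0.0200 to 0.320 CPM. Cd22, an inhibitory receptor, fell from 2.98 to 6.20 CPM to 0.360 to 1.33 CPM, and Cd72, another inhibitory receptor, fell from 4.80 to 5.48 CPM to 0.139 to 1.65 CPM. Of the Cd72 exon bases, 41.6% overlap Tesk1 on the opposite strand, so part of its count could belong to that gene. The call of Cd72 was lost against the low-share Mir139KO libraries (edgeR adjusted p = 0.0566).

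Cr2, the complement receptor CD21 of mature B cells, rose. It was at 0.378, 0.442, 0.0990 and 0.0735 CPM in WT and 0.127, 0.456, 0.196 and 0.552 CPM in Mir139KO replicates 1 to 4, which is 2 to 19 counts. In MLL-AF9 cells it was at 1.41, 2.06 and 2.77 CPM in neo and 0.919, 0.520 and 1.40 CPM in puro cultures, all above the WT libraries, while the lowest culture overlapped the highest Mir139KO library. The log2 fold change was 2.54 against WT (SE 0.63, edgeR adjusted p = 0.00417) and the call was lost with the low-share WT libraries alone (log2 fold change 1.83, edgeR adjusted p = 0.0589). Cr2 passed the filter on low counts only through MLL-AF9 samples, which bears on this rise.

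Cd24a and Cd37, which are also made by many blood cells that are not B cells, had the highest levels per exon length of the surface genes in every group. Cd24a was at 413, 343, 68.8 and 125 CPM in WT and 139, 299, 289 and 144 CPM in Mir139KO replicates 1 to 4, and at 308, 224 and 251 CPM in neo and 141, 173 and 165 CPM in puro cultures. Its values overlapped between the groups (log2 difference against WT -0.19, SE 0.45, edgeR adjusted p = 0.730), and the direction turned with the library class, being called lower against the 2 low-share WT libraries (-0.90) and higher against the 2 high-share ones (0.99). With the GC correction Cd24a was called lower against WT (-1.06, edgeR adjusted p = 0.0104) and against Mir139KO (-1.21, edgeR adjusted p = 0.00134), and also with the replicate block added (-0.90 and -1.11). Cd37, a tetraspanin, was at 68.6, 56.6, 134 and 131 CPM in WT and 166, 81.1, 77.0 and 125 CPM in Mir139KO replicates 1 to 4, against 62.3 to 93.1 CPM in MLL-AF9 cells (median 65.9), with a log2 difference against WT of -0.51 (SE 0.29, edgeR adjusted p = 0.148). Cd37 was called lower without WT replicate 2 (-0.74, edgeR adjusted p = 0.0369) and against the high-share WT libraries (-1.06, edgeR adjusted p = 0.00164), and its difference ran from -1.06 to 0.35 over all alternatives.

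Fcer2a, the low affinity IgE receptor CD23, was at 3.02, 2.54, 4.06 and 3.97 CPM in WT and 5.79, 2.73, 1.93 and 3.31 CPM in Mir139KO replicates 1 to 4. In MLL-AF9 cells it ranged from 1.98 to 8.45 CPM with a median of 3.02, overlapping both (log2 difference against WT 0.27, 95% interval -0.69 to 1.23). Btla, an inhibitory receptor of lymphocytes, was at 5.64, 6.94, 1.62 and 1.65 CPM in WT and 1.01, 6.13, 2.35 and 2.17 CPM in Mir139KO replicates 1 to 4. In MLL-AF9 replicates 1 to 6 Btla was at 0.310, 13.7, 6.05, 0.340, 4.84 and 0.627 CPM, so replicates 2, 3 and 5 were high and 1, 4 and 6 low, across both vectors. The largest value was 44.1 times the smallest, and the interval of the log2 difference against WT ran from -1.998 to 2.17.

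Of the 4 signalling genes, 2 fell, 1 rose and 1 was not called, where 29.4% of all genes tested against WT were called lower and 32.8% higher. Of the fallen genes, Blk passed the filter on low counts through HSPC samples alone. Blnk also needed HSPC samples to pass, so the p-value of Blnk is no independent support for a fall. Bank1, a scaffold protein of B cell receptor signalling, was at 1.76, 1.14, 0.462 and 0.478 CPM in WT and 0.296, 0.883, 0.391 and 0.513 CPM in Mir139KO replicates 1 to 4. In MLL-AF9 cells it was at 13.2, 33.4 and 31.6 CPM in neo and 4.80, 3.46 and 5.66 CPM in puro cultures. All 6 cultures lay above all 8 HSPC libraries, and the log2 fold change against WT was 3.96 (SE 0.81, edgeR adjusted p = 0.00127). Blnk, the adaptor that links the receptor to its kinases, fell from 6.403 to 9.48 CPM in WT to 0.0775 to 0.600 CPM (log2 fold change -4.81, SE 0.49, edgeR adjusted p = 1.31e-05). Blk, a Src family kinase of B cells, had 102 to 234 counts in WT libraries and 2 counts over all 6 MLL-AF9 libraries, a ratio of 584 with an exact 95% counting interval of 161 to 4831. Il7r, the interleukin-7 receptor, was at 8.54, 11.0, 1.78 and 2.17 CPM in WT and 1.48, 6.72, 3.94 and 2.25 CPM in Mir139KO replicates 1 to 4. In MLL-AF9 replicates 1 to 6 Il7r was at 1.80, 3.60, 0.678, 11.2, 2.32 and 10.1 CPM, so replicates 4 and 6 lay near the highest WT library and the others at or below 3.60 CPM (log2 difference against WT -0.26, 95% interval -1.90 to 1.39). With the replicate block and GC correction Il7r was called lower against WT (-2.40, edgeR adjusted p = 0.0194) and against Mir139KO (-1.90, edgeR adjusted p = 0.0482). That block joins samples by replicate numbers that do not pair them. MLL-AF9 cultures without a same-numbered HSPC library, among them replicate 6, do not enter its difference, so these calls are no support for a fall. Over all alternatives the difference of Il7r against WT ran from -2.40 to 1.22.

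**Figure D3:**
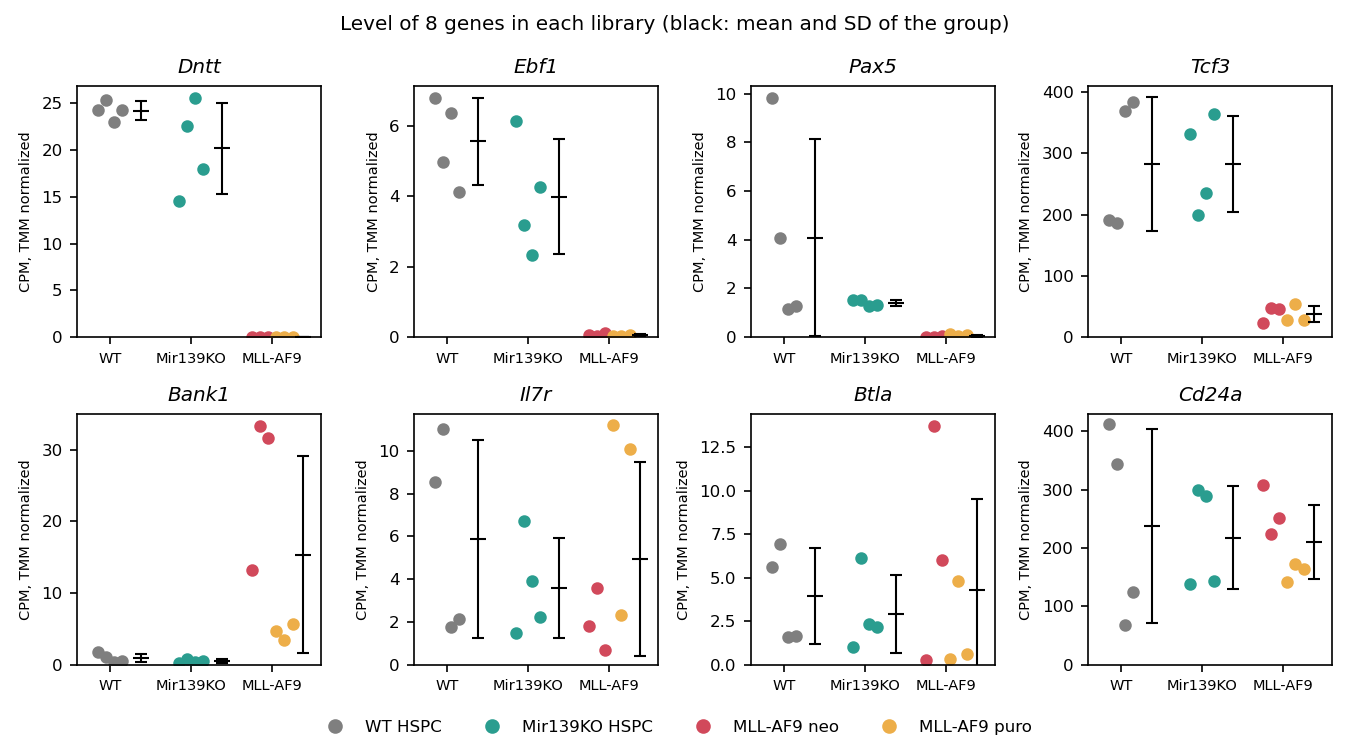
TMM-normalized CPM (vertical axes, linear from 0) of Dntt, Ebf1, Pax5, Tcf3, Bank1, Il7r, Btla and Cd24a in each library, colored by group and vector, with the mean and SD of each group in black. Dntt, Ebf1 and Pax5 lie close to 0 in MLL-AF9 cells and Tcf3 at 23.5 to 55.0 CPM, whereas Bank1 is highest in neo cultures, Il7r is split by single cultures, and Il7r, Btla and Cd24a overlap between groups.

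Per kilobase of exon, the order of the levels changed between the groups. In WT HSPCs Cd24a (92.1 ± 64.4 CPM per kilobase, SD, n = 4) and Tcf3 (70.0 ± 27.0) stood first and did not differ beyond their spread. Cd37 followed at 27.6 ± 11.5 CPM per kilobase, Cd79b at 17.9 ± 7.54, Dntt at 10.6 ± 0.43 and Cd79a at 8.94 ± 3.42, and the spreads of Cd79b, Dntt and Cd79a overlapped. In MLL-AF9 cells Cd24a (81.5 ± 24.3 CPM per kilobase, SD, n = 6) was followed by Cd37 at 19.7 ± 3.32, Tcf3 at 9.35 ± 3.20 and Bank1 at 2.05 ± 1.83. Bank1 moved from rank 29 of the 33 genes in WT HSPCs to rank 4, and Dntt from rank 5 to rank 25. The spread of Bank1 in MLL-AF9 cells overlapped those of Cd79b (1.51 ± 1.08) and Cd79a (1.45 ± 0.791). Its level was highest in neo cultures, so rank 4 is uncertain.

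The same MLL-AF9 samples were set against Mir139KO HSPCs, so the results are not independent of those above. Of 29 genes tested 22 fell, 2 rose and 5 were not called with edgeR, where 31.9% of all 16953 genes tested were called lower and 37.3% higher. Both risen genes, Bank1 and Cr2, passed the filter only through MLL-AF9 samples, and the same 7 genes as above passed with no MLL-AF9 sample at 10 counts. Again 17 genes had at least 4 MLL-AF9 samples of 10 counts, so these counts too describe the genes that passed. The median log2 fold change of the genes was -3.08, beside 0.16 over all genes tested. Every MLL-AF9 sample lay below every Mir139KO sample for 21 of them (27.9% of all genes) and above for 1, Bank1 (30.1%). Log2 fold changes against Mir139KO were -6.07 for Ebf1 (SE 0.45), -4.91 for Pax5 (SE 0.66) and -10.35 for Dntt (SE 0.67), beside -6.54, -6.43 and -10.61 against WT. Bank1 was 4.83 higher (SE 0.81, edgeR adjusted p = 0.00021) and Cr2 was 2.15 higher (SE 0.57, edgeR adjusted p = 0.00491). Cd37 was called lower here by 0.73 on the log2 scale (SE 0.25, edgeR adjusted p = 0.0196), but its direction turned to 0.08 with total counts only and to 0.16 with a correction for GC content, and the call was lost without Mir139KO replicate 1 (-0.51, edgeR adjusted p = 0.0674). Cd37 was called under 20 of 29 alternatives. The call of Cr2 was lost with the GC correction (0.64), with the block and GC correction together (0.98) and with only the high-share Mir139KO libraries (2.06).

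Whether B lineage genes have another level when Mir139 is lost was asked by setting Mir139KO against WT HSPCs. None of the 29 genes tested was called with edgeR, as was the case for 0% of all 15056 genes tested, and DESeq2 and limma-voom also called 0. At an unadjusted p under 0.05 there were 2 with edgeR, Lef1 and Pax5, 2 with DESeq2 and 1 with limma-voom. Lef1 was at 10.1, 8.34, 7.75 and 6.46 CPM in WT and at 4.23, 4.30, 5.33 and 5.24 CPM in Mir139KO replicates 1 to 4, so every Mir139KO library lay below every WT library, which held for 0.286% of all genes tested. The log2 difference of Lef1 was -0.78 (95% interval -1.35 to -0.21, edgeR adjusted p = 0.9999). For Pax5 the log2 difference was -1.53 (95% interval -2.96 to -0.10, edgeR adjusted p = 0.9999), and it rests on WT replicates 1 and 2. The median difference of the 29 genes was -0.13, beside -0.03 over all genes tested. Within the low-share libraries alone (2 against 2) the median was -0.54, beside -0.01 over all genes tested, with 12 genes at an unadjusted p under 0.05. Within the high-share libraries alone it was 0.06, beside 0.01, with 3, and 0 of these genes were called in each. The share of all genes at that unadjusted threshold was not worked out, so no such count has a background. In the low-share class Gm26917 took 17.0 and 17.8% in WT and 21.3 and 21.9% in Mir139KO libraries, so genotype and share cannot be told apart there.

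The neo and puro cultures differed in some genes, but vector and culture cannot be told apart. Of the 20 genes with enough counts to be tested 0 were called with edgeR, beside 0.873% of all 16503 genes tested, and an unadjusted p under 0.05 was found for 4. The share of all genes at that unadjusted threshold was not worked out. Every puro culture lay below every neo culture for 4 genes, Cd79b, Cr2, Cd24a and Bank1, where 7.88% of all genes tested did so. Bank1 was 26.1 ± 11.1 CPM in neo (SD, n = 3) and 4.64 ± 1.11 CPM in puro cultures (SD, n = 3), with a log2 difference of -2.48 (SE 0.43, edgeR adjusted p = 0.0629). It was called lower under 5 of 21 alternatives, with adjusted p from 2.47e-06 to 0.253. Cd24a was 261 ± 43.2 CPM in neo and 160 ± 16.4 CPM in puro cultures, with a log2 difference of -0.72 (SE 0.19, edgeR adjusted p = 0.162). Cd79b differed by -1.59 (SE 0.60, edgeR adjusted p = 0.3125), and Il7r by 1.99 in the other direction (SE 0.81, edgeR adjusted p = 0.353). Without MLL-AF9 replicate 5, Bank1 (-2.28) and Ikzf3 (2.31, edgeR adjusted p = 0.0385) were called. Pax5, at 0 to 6 counts, was not tested. Its CPM was lower in every neo than in every puro culture. However, neo replicate 3 and puro replicate 5 each had 2 counts, so the gap between them came from scaling alone. Among the 16503 genes tested, 1957 were higher in every puro than in every neo culture.

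The HSPC libraries were also compared by their share of Gm26917, over against under 25%, with genotype as a term. This comparison was added after the data were seen. Of the 29 genes 7 were called higher in the high-share libraries, where 32.9% of all 15056 genes tested were, and 7 lower, where 36.5% were. With total counts in place of TMM factors the split was 2 higher and 12 lower, and with the GC correction 5 and 4. The genes called higher were Cd79b (log2 difference 1.12), Cd37 (1.00), Cd79a (0.98), Faim3 (0.89), Tcf3 (0.86, but -0.04 with the GC correction), Fcer2a (0.76) and Cd22 (0.54, but -0.14 with total counts). Those called lower were Il7r (-1.90), Btla (-1.66), Cd24a (-1.49), Bank1 (-1.16, but 0.01 with the GC correction), Bach2 (-0.83), Cecr2 (-0.76) and Ikzf3 (-0.48). The GC content of the longest transcript was 51.6 to 61.0% for the 7 higher genes and 39.0 to 49.0% for the 7 lower genes. For the 15 genes not called it was 41.4 to 56.5%, which overlaps both ranges. Dntt was not called between the classes (-0.30, edgeR adjusted p = 0.0867), but with total counts only it was called lower (-0.97, edgeR adjusted p = 0.000267). With the GC correction Ebf1 (1.38), Blnk (0.79) and Lef1 (0.46) were called higher and Tnfrsf13c (-0.55) lower, while Cd79b and Cd37 remained higher and Il7r, Cd24a and Bach2 lower.

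**Figure D4:**
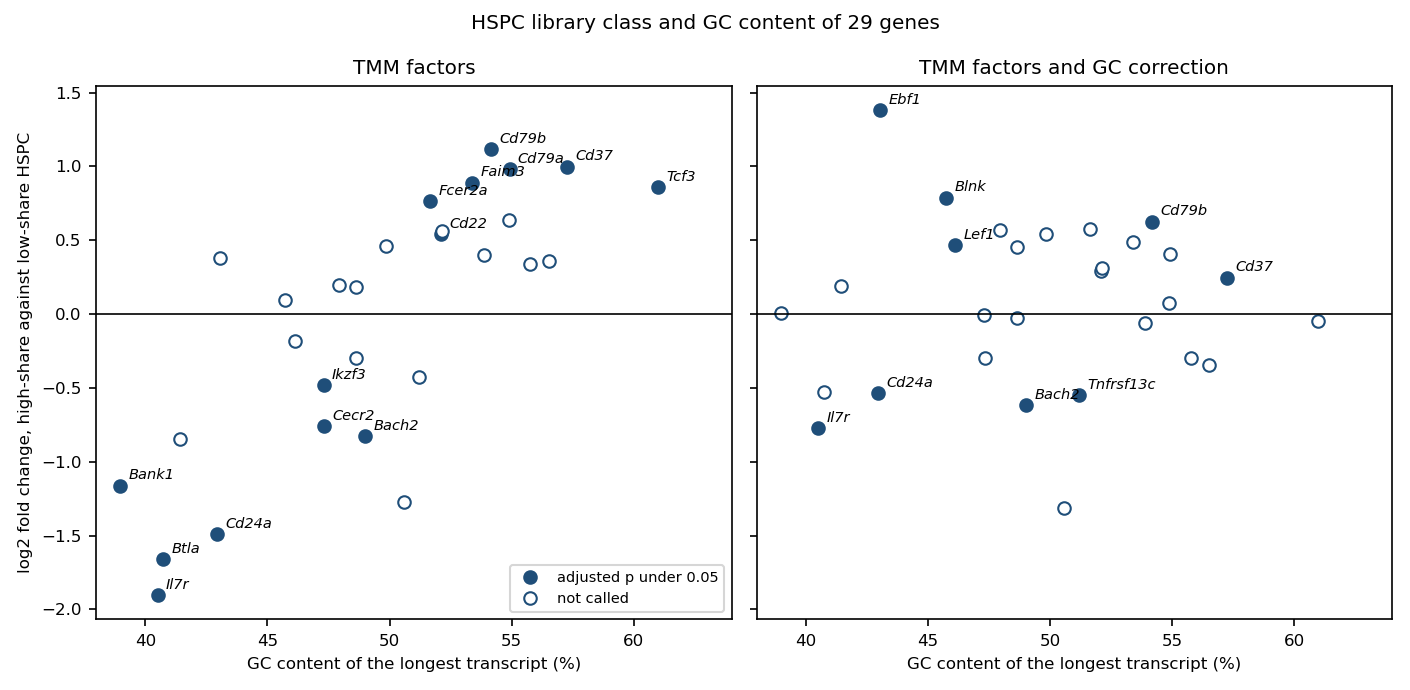
Log2 fold change between high-share and low-share HSPC libraries (vertical axes) against the GC content of the longest transcript (horizontal axes, %) for the 29 tested genes, with TMM factors (left) and with a GC correction added (right), filled points called at an adjusted p under 0.05 with edgeR. On the left the called genes above 0 have 51.6 to 61.0% GC, those below 0 have 39.0 to 49.0% and those not called have 41.4 to 56.5%. On the right 5 are called above and 4 below 0.

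Of 32 B lineage genes on a separate list, 31 were tested against WT HSPCs, and 10 rose, 13 fell and 8 were not called, where 32.8% of all genes tested were higher and 29.4% lower. The median log2 fold change of the list was -0.46, beside 0.14 over all genes tested. Those with the highest levels in WT HSPCs, Ikzf1 (-0.04), Syk (-0.46) and Plcg2 (-0.46), which also serve myeloid cells, were not called, and Cxcr4 fell (log2 fold change -2.32, SE 0.23, edgeR adjusted p = 9.98e-06). Ly6d, a marker of B-committed lymphoid progenitors named here after its values were seen, had 365 to 471 counts in WT libraries and 0 in every MLL-AF9 library, at least 197-fold lower. The 10 genes of the list that rose did so by up to 4.99 on the log2 scale, so Ly6d does not stand for the list.

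Markers of other cell types moved in the same comparison, in which 29.4% of all genes tested were called lower and 32.8% higher. T and NK cell markers fell in 12 of 15 genes against WT and rose in 1, with a summed level of 143 to 248 CPM in WT and 13.3 to 45.8 CPM in MLL-AF9 libraries. Erythroid markers fell in all 7 tested of 8, from a summed 565 to 1304 CPM to 0.840 to 2.48 CPM. Plasma cell markers fell in 6 of 8 and rose in 1, at a summed 339 to 537 CPM in WT and 312 to 515 CPM in MLL-AF9 libraries. Most of the sum in MLL-AF9 cells was Xbp1, which is used in many cell types (363 CPM on average), while Jchain fell from a mean of 179.5 to 0.0419 CPM and Mzb1 from 13.05 to 0.0522 CPM, and these genes were picked after their values were seen. Plasmacytoid dendritic cell markers were called lower for 3 and higher for 3 of 9 listed, at a summed 102 to 140 CPM in WT and 495 to 900 CPM in MLL-AF9 libraries, with Cox6a2 and Smim5 at 0 throughout. The higher sum was mostly Runx2 (mean 49.7 CPM in WT and 515 CPM in MLL-AF9 cells) and Tcf4 (24.2 and 159 CPM), which other cell types also use. Siglech fell from 3.63 to 0.0133 CPM and Bst2 from 37.9 to 12.6 CPM, and these 4 genes were again picked after their values were seen. The median log2 fold change of this list was 0.54, beside 0.14 over all genes tested, so its genes shared no direction. Neutrophil markers fell in 4 of 9, at a summed 4960 to 15700 CPM in WT and 2985 to 4350 CPM in MLL-AF9 libraries, monocyte and macrophage markers in 4 of 7 with 1 higher, and stem and progenitor markers in 5 of 10 with 1 higher. Their part in the levels of the B lineage genes was not tested.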

How the data were processed

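The authors used STAR 2.5.3e to map reads to build GRCm38, and reads were counted per gene with featureCounts 1.6.0 on GENCODE release M15, per the study's methods and the submitters' processing notes. The authors deposited a table of gene counts for all samples, as whole numbers that were not normalized. A second deposited table held the same number in all 735700 shared cells, and 10 columns of another series were not used. The strand setting of the counting is not given in the sources used here. Gene coordinates, exon lengths and GC content came from GENCODE release M21 on GRCm38, which placed 52403 of 52550 genes.

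Groups, vectors and replicate numbers came from the sample labels. The members and gene lists were chosen with earlier results of these data known. Counts were tested with edgeR 4.0.16 under R 4.3.3 (TMM factors, robust quasi-likelihood F test), each comparison with its own samples only. A gene was tested if the number of samples with at least 10 counts was no smaller than the smaller group, and an adjusted p under 0.05 (Benjamini-Hochberg over all genes tested) was called. The SE was taken from the log2 fold change and the square root of its F value. On simulated counts, of 200 genes changed by 2 on the log2 scale, 200 were recovered in the simulated comparison of MLL-AF9 with WT HSPCs (17250 genes tested), 200 with Mir139KO HSPCs (17090), 200 for Mir139KO against WT HSPCs (15169) and 199 between vectors (16790). Unchanged genes called numbered 8, 11, 12 and 7 in the same order. Every simulated gene had the same dispersion, libraries had no classes, and only genes with enough counts were changed. The recovery therefore checks the code and does not carry over to these data. Values in every sample are given for members with a mean of at least 10 CPM in any group, for those that split by vector or HSPC library class, and for Rag1, Rag2, Dntt, Vpreb1, Igll1, Pax5 and Ebf1. Other members are given by range. Genes that are no members were named from the lists, at most the 4 with the highest level in WT HSPCs, with Gm26917, and some results for genes that are no members are not reported here. Replicate numbers do not pair the samples, so a fit with a replicate block is no paired test. In such fits against HSPCs, MLL-AF9 replicates 5 and 6 had no same-numbered HSPC library and did not enter the difference. The correlation of deviations ranged from -0.59 to 0.66 between same-numbered WT and Mir139KO libraries.

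The alternatives were RLE factors, total counts only, DESeq2 1.42.0, limma-voom (limma 3.58.1), a fit without the filter, a filter at mean counts of 100 or more, a joint fit of the 14 samples, the second count table, removal of Gm26917 and of immunoglobulin, haemoglobin and mitochondrial genes, a threshold of 0.01, a minimum size of 1 on the log2 scale, a replicate block, a GC correction (an offset from a natural spline of GC content, 5 degrees of freedom, fitted in each sample), that correction with the block, each replicate left out, each vector or HSPC library class alone, the class as a covariate, and MLL-AF9 replicates 4 and 6 summed. Counting intervals are exact 95% Poisson intervals, and the intervals of log2 differences come from the edgeR fits and include the spread between samples.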

Additional observations from a re-analysis of the deposited data

Results flagged for a closer look

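In 85 groups of 4 or 6 samples with more than 3 counts in some sample, 6 held a value far from the others by Dixon's test. Chance alone marks about 1 in 20 groups. Igll1 was at 2.83 CPM in Mir139KO HSPC replicate 1, where the other 3 libraries were at most at 0.670 CPM. Blnk was at 9.48 CPM in WT HSPC replicate 1, with the next library at 6.91 CPM. In MLL-AF9 replicate 1, Cd37 was at 93.1 CPM with the next culture at 67.2 CPM, Vpreb3 at 1.26 CPM with the next at 0.5497 CPM, and Cecr2 at 26.15 CPM with the next at 9.60 CPM. Ebf1 was at 0.110 CPM in MLL-AF9 replicate 3, with the next culture at 0.0582 CPM, a difference of a few counts.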

How the results depend on the processing

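Against WT HSPCs 22 to 25 of the genes were called under the alternatives, and against Mir139KO HSPCs 21 to 25, apart from the filter at a mean of at least 100 counts, where fewer genes were tested and 12 of 18 and 10 of 15 were called. Leaving out 1 replicate, which ended or made a call only for Cd37 in these comparisons, gave 23 to 24 against WT and 23 to 24 against Mir139KO HSPCs. With total counts only the all-gene median on the log2 scale went from 0.14 to 0.69 against WT and from 0.16 to 0.84 against Mir139KO HSPCs, and the share of calls that were higher went from 52.7 to 68.3% and from 53.9 to 71.4%, while the genes described here gave 2 higher and 21 lower against each, a lower call (Cd37) being lost against Mir139KO HSPCs. Between Mir139KO and WT HSPCs 0 of the genes described here were called under every alternative run. Between vectors 0 became 2 with DESeq2 (Bank1 and Cd24a), 1 without a filter, 1 with all 14 samples in a single fit and 1 with the replicate block and GC correction, and leaving out 1 replicate gave 0 to 2 (Bank1 and Ikzf3 without MLL-AF9 replicate 5). With the replicate block alone the counts were 23, 24, 0 and 0, and no single gene's call changed with that block. Between high-share and low-share HSPC libraries 14 calls became 9 with the GC correction.

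Over all single-gene values, the sign differed from the reported one in 33 of 830 against WT, 29 of 827 against Mir139KO HSPCs, 70 of 718 between genotypes and 12 of 410 between vectors. These totals include the second count table, the threshold of 0.01 and the minimum size of 1, which could not change a sign. Between MLL-AF9 cells and HSPCs the values with another sign were those of Btla, Cd24a, Cd37, Cecr2, Fcer2a and Il7r. Where a called value was involved, the direction turned for Cd24a against the high-share WT libraries (0.99), for Cd37 against Mir139KO HSPCs with total counts only (0.08), the GC correction (0.16) and that correction with the replicate block (0.21), and for Il7r against Mir139KO HSPCs with the GC correction and block (-1.90). Between library classes it turned for Cd22 (-0.14) and Blnk (-0.58) with total counts only, and for Bank1 (0.01), Tcf3 (-0.04) and Lef1 (0.46) with the GC correction. The cause was not tested. Of 99 group means, 9 moved by more than 1 SD with total counts in place of TMM factors. Genes with few counts, such as Vpreb1, Igll1 and Cr2, are limited by depth, and the exact interval of Blk and the floors of 3 counts cover counting error only.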
